A study of Mus musculus with 9 samples.

Results

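The genes described here are Lin28a, Lin28b, Igf2bp1, Igf2bp2, Igf2bp3, Hmga1 and Hmga2, a set of oncofetal genes. They are 7 of the 54532 genes in the count table and were chosen by name, with their differences between the groups in these same libraries already known. The libraries were made from cultured adipose-derived stem cells (ASCs) of C57BL/6 mice, named by the fat they came from as Sub-ASC (subcutaneous), Ab-ASC (abdominal) and PVASC (perivascular), with 3 libraries per group and 9 in all. All groups were grown in the same kind of medium, which held serum, leukemia inhibitory factor and FGF, and no treatment or altered allele is named in the labels for any of them. For the sequenced cells the study gives a range of passages, and not the passage of each library or group. The age and sex of the mice, and whether the 3 libraries of a group came from separate animals or cultures, are not given in the sources used here, so an error over 3 libraries may be technical.

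LIN28A and LIN28B are RNA-binding proteins of the embryo that hold back the maturation of let-7, a family of microRNAs that accumulates as cells differentiate. LIN28A acts together with the terminal uridylyltransferases, which tag let-7 precursors for decay. The IGF2BP proteins bind messenger RNAs and affect their stability and translation, and the HMGA proteins are small chromatin proteins that bind AT-rich DNA. All of these genes are used widely in the embryo, mostly fall silent in adult tissues and return in many tumours, with IGF2BP2 known to persist in adult tissues. Let-7 binds the 3' UTRs of several of them, most famously that of Hmga2.

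The sequences shown here are those through which let-7 and these genes are linked. A mature microRNA pairs with a target mainly through its seed, bases 2 to 8. In RefSeq on GRCm38.p6, 10 of 11 mature let-7 and miR-98 sequences had the same seed, which is in capitals in the examples, and let-7j differed. The let-7a sequence lies at chr13:48538239-48538260 on the minus strand, let-7g at chr9:106178846-106178867 on the plus strand, miR-98 at chrX:151913229-151913250 on the plus strand and let-7j at chr3:140028281-140028304 on the plus strand.
let-7a: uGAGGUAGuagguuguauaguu
let-7g: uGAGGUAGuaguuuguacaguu
miR-98: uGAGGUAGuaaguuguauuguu
let-7j: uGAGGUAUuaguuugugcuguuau

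The complement of that seed, the letters CTACCTC, was searched on the transcript strand of the longest 3' UTR that GENCODE M21 gives each gene on GRCm38. A match followed by A is counted as a match of 8 letters. All 7 genes held at least 1 match, against 9.02% of the 21022 genes with an annotated 3' UTR. Lin28b, Igf2bp1 and Hmga2 held 4 matches each, Lin28a held 2, and Igf2bp2, Igf2bp3 and Hmga1 held 1 each. At least 4 matches were found in 12 genes of the genome, or 0.0571%, and 4 of these genes had more than 4. Nr6a1 had 8, Mcf2l and Nudt12 had 7 each and Trim6 had 6.

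The sites of the 3 genes with 4 matches are printed with the match in capitals, and with the A that follows it also in capitals where the match has 8 letters. They lie in the last exon of each gene, on the minus strand of chromosomes 10 and 11. The 4 matches of Hmga2 fall at chr10:120364224-120364245, chr10:120362987-120363008, chr10:120362549-120362570 and chr10:120361691-120361712.
Hmga2 match 1: ccgacattcaatttCTACCTCA
Hmga2 match 2: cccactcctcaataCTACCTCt
Hmga2 match 3: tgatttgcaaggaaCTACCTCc
Hmga2 match 4: atcaaaacacactaCTACCTCt
Those of Lin28b fall at chr10:45381022-45381043, chr10:45378648-45378669, chr10:45378476-45378497 and chr10:45377060-45377081.
Lin28b match 1: cccgggcgggaagtCTACCTCA
Lin28b match 2: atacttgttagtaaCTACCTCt
Lin28b match 3: tttacagcacatggCTACCTCc
Lin28b match 4: aatgatggcaccgaCTACCTCt
Igf2bp1 has its matches at chr11:95961778-95961799, chr11:95959357-95959378, chr11:95958763-95958784 and chr11:95958140-95958161.
Igf2bp1 match 1: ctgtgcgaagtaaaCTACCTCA
Igf2bp1 match 2: agcagtgctattaaCTACCTCA
Igf2bp1 match 3: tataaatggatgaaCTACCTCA
Igf2bp1 match 4: cttttggttttaatCTACCTCt

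Of the 4 matches, 3 were of 8 letters in Igf2bp1 and 1 each in Lin28b and Hmga2, and both matches of Lin28a had 8 letters. Hmga2 had its matches 58, 1295, 1733 and 2591 bases after the stop codon in a 3' UTR of 3014 bases, and Lin28b had them 36, 2410, 2582 and 3998 bases after it in 4445 bases. Per kilobase, the 7 genes held 0.472 (Igf2bp3) to 1.33 (Hmga2) matches, against 0.0700 over all 3' UTRs. The single match of Hmga1 is lost in its shortest annotated 3' UTR, which is 49 bases long, whereas the number of matches stayed the same for the other 6 genes. A match of letters is a description and does not show that let-7 binds there.

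**Figure D1:**
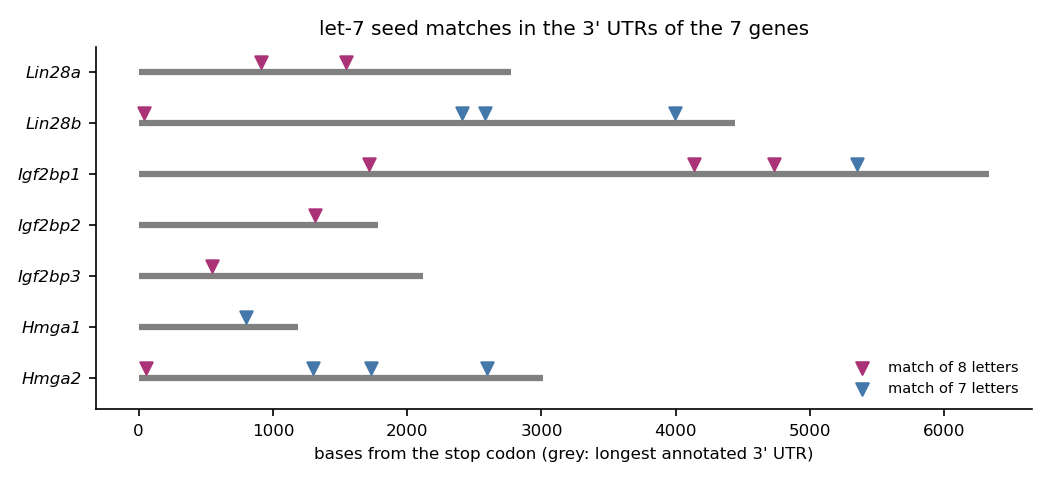
Positions of let-7 seed matches in the longest annotated 3' UTR of the 7 genes, in bases from the stop codon; triangles are matches of 7 or 8 letters and grey bars are the 3' UTRs. Lin28b, Igf2bp1 and Hmga2 each carry 4 matches, and Lin28b and Hmga2 each have an 8-letter match within 58 bases of the stop codon.

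The 9 libraries held 20524173 to 29881036 reads assigned to genes. The stromal markers that define such cells differed between the groups. Of the 12 stromal markers tested, 10 were lower in PVASC and 10 in Ab-ASC than in Sub-ASC, and their summed level was 32333 to 32927 CPM (read counts scaled to a common library size) in Sub-ASC, 12200 to 12618 in Ab-ASC and 8039 to 8369 in PVASC. Ly6a, which encodes the stem cell antigen Sca-1, stood at 2049 ± 115 CPM in Sub-ASC, 21.8 ± 3.42 in Ab-ASC and 111 ± 4.45 in PVASC (SD, n = 3). The 2 markers higher in PVASC than in Sub-ASC were Thy1, which encodes CD90, and Eng, which encodes CD105. Thy1 stood at 332 ± 11.4, 231 ± 24.2 and 883 ± 19.1 CPM in the same order, and Eng at 108 ± 4.48, 145 ± 10.1 and 328 ± 10.6. In such bulk samples, fewer cells of a type and less RNA per cell cannot be told apart. Levels are given as CPM after TMM scaling, or as FPKM, which also divides by gene length, where genes are compared with each other.

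Most genes of the transcriptome differed. In edgeR's quasi-likelihood test, at an adjusted p threshold of 0.05 and all 9 libraries in 1 fit, 70.4% of 16526 tested genes were called between PVASC and Sub-ASC, 75.3% between Ab-ASC and Sub-ASC and 56.9% between PVASC and Ab-ASC. Of the 7 genes, 6 had enough reads to be tested and Lin28a did not. All 6 were called between PVASC and Sub-ASC, 5 higher and 1 lower, 5 between Ab-ASC and Sub-ASC, 3 higher and 2 lower, and 5 between PVASC and Ab-ASC, all higher. Because the genes were chosen on these contrasts, the counts are a description, nothing is read from them, and no p is given for these genes. The comparisons share libraries and are not independent of each other.

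**Figure D2:**
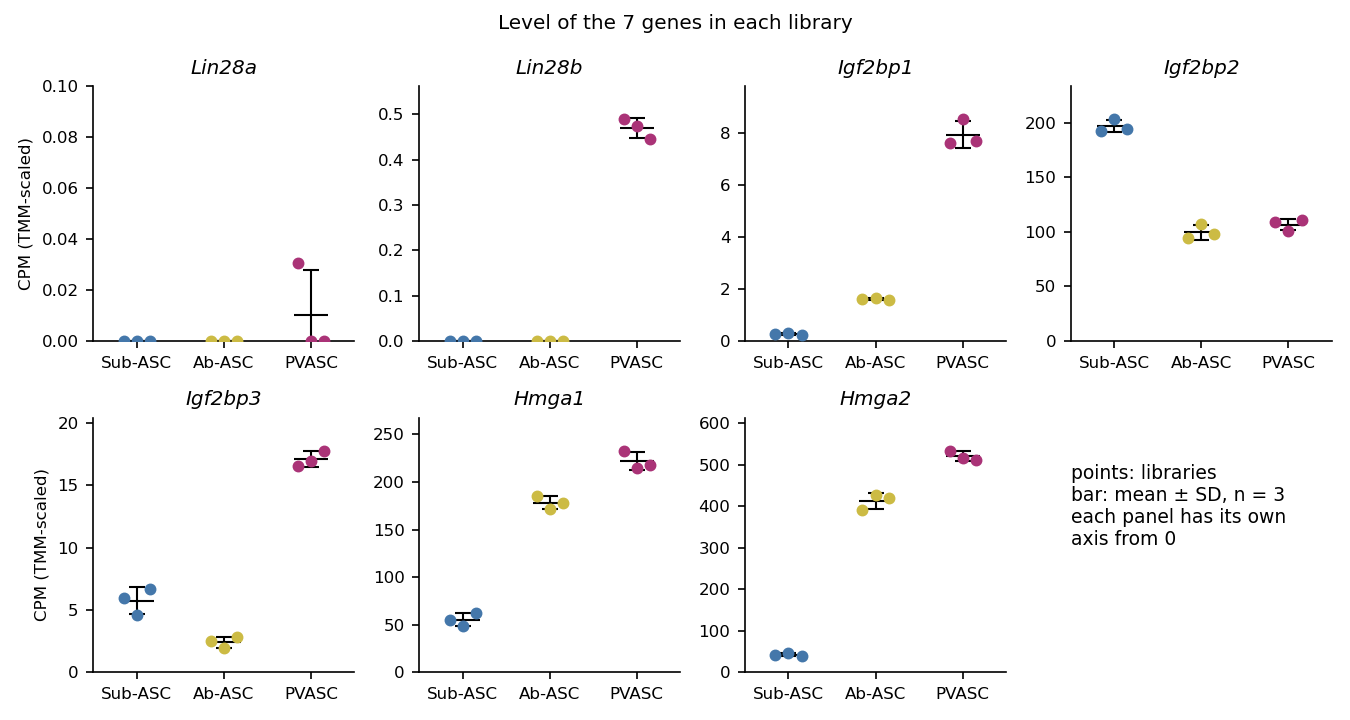
CPM after TMM scaling of the 7 genes in each library (points), with mean and SD over 3 libraries (black); each panel has its own axis from 0. Lin28b was read only in PVASC, Igf2bp2 was highest in Sub-ASC, and Igf2bp1, Igf2bp3, Hmga1 and Hmga2 were highest in PVASC.

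Lin28b, on chromosome 10 at 45376620 to 45486395, was read in PVASC and in no library of the other groups. The 3 PVASC libraries held 16, 14 and 14 reads, or 0.489, 0.475 and 0.445 CPM, and the 6 other libraries held 0 reads. The separation is complete but rests on 44 reads in all. The mean of 0.470 ± 0.0223 CPM in PVASC was at least 3.90-fold higher than a level of 3 reads per library in Sub-ASC and at least 3.29-fold higher than that in Ab-ASC. At 3 reads, the limit that a count of 0 allows was 0.114 to 0.129 CPM in Sub-ASC libraries and 0.133 to 0.161 CPM in Ab-ASC libraries, so a lower level there would not have been detected.

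Even in PVASC, Lin28b was a rare transcript. Its 0.0566 ± 0.00269 FPKM was above only 3.15% of the tested genes. Tbx20, the transcription factor that the study centred on, had the same on and off pattern, with 1106 reads over the PVASC libraries and 0 in the others. Lin28a, on chromosome 4 at 134003330 to 134018841, had 1 read in 1 PVASC library and 0 in the other 8 libraries, so no fold is given for it.

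The Igf2bp genes differed between the groups in unlike ways. Igf2bp1, on chromosome 11 at 95957163 to 96005940, differed between all 3 groups. It had 6, 8 and 6 reads in Sub-ASC (0.258, 0.314 and 0.229 CPM), 30, 37 and 35 in Ab-ASC (1.61, 1.64 and 1.56 CPM) and 249, 252 and 242 in PVASC (7.61, 8.54 and 7.70 CPM). The groups did not overlap, and the order was Sub-ASC, Ab-ASC, PVASC. The fitted log2 fold change was 4.87 ± 0.18 (SE) for PVASC against Sub-ASC, 2.57 ± 0.23 for Ab-ASC against Sub-ASC and 2.30 ± 0.13 for PVASC against Ab-ASC.

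Igf2bp3, on chromosome 6 at 49085223 to 49214957, had its lowest level in Ab-ASC. It stood at 5.97, 4.60 and 6.67 CPM in Sub-ASC, 2.52, 1.96 and 2.81 in Ab-ASC, and 16.5, 16.9 and 17.7 in PVASC. No library of one group reached the range of another. Its log2 fold change was 1.57 ± 0.13 for PVASC against Sub-ASC, -1.24 ± 0.17 for Ab-ASC against Sub-ASC and 2.81 ± 0.15 for PVASC against Ab-ASC. The order of Sub-ASC and Ab-ASC was thus opposite to that of Igf2bp1. Malsu1 overlaps Igf2bp3 on the other strand and had 328 to 477 reads in all libraries, and because the library kit does not mark strand, reads from the overlap cannot be told apart.

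Igf2bp2, on chromosome 16 at 22059009 to 22163299, was the member with lower levels outside Sub-ASC. Its levels were 193, 203 and 194 CPM in Sub-ASC, 94.2, 107 and 97.8 in Ab-ASC, and 109, 101 and 111 in PVASC. Sub-ASC lay above both other groups, and the latter overlapped on this scale. In FPKM they did not, at 11.5 to 13.8 in Ab-ASC and 14.8 to 16.4 in PVASC. The log2 fold change was -0.88 ± 0.062 for PVASC and -0.98 ± 0.063 for Ab-ASC against Sub-ASC, and 0.10 ± 0.063 for PVASC against Ab-ASC (0.32 on the FPKM scale), a difference that was not called.

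Compared per length, Igf2bp2 was by far the main gene of this family in every library, and its share was lowest in PVASC. Of the summed FPKM of the 3 genes, it made up 97.3% ± 0.506 in Sub-ASC, 96.7% ± 0.521 in Ab-ASC and 83.2% ± 0.931 in PVASC (SD, n = 3). The share of Igf2bp3 was 2.59% ± 0.520, 2.15% ± 0.481 and 12.1% ± 0.481 in the same order, and that of Igf2bp1 was 0.101% ± 0.0143, 1.19% ± 0.0625 and 4.75% ± 0.504. The summed level was highest in Sub-ASC at 26.7 ± 0.675 FPKM, lowest in Ab-ASC at 13.0 ± 1.12 and 18.9 ± 0.849 in PVASC. So Igf2bp1 and Igf2bp3 together were a minor part of the family in all groups, and a larger part of it in PVASC.

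**Figure D3:**
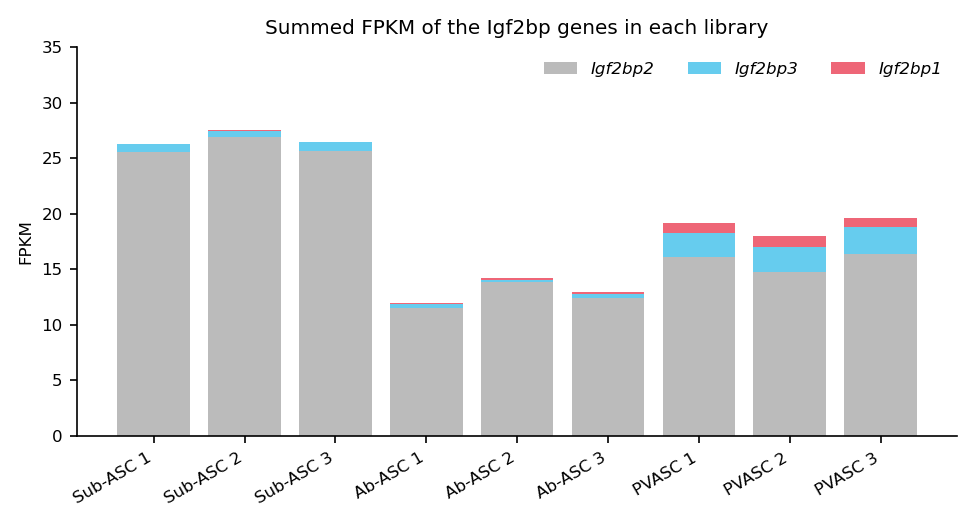
Summed FPKM of Igf2bp2 (grey), Igf2bp3 (blue) and Igf2bp1 (red) in each of the 9 libraries. Igf2bp2 fills most of every bar, and Igf2bp3 and Igf2bp1 are visible mainly in the 3 PVASC libraries, at 12.1% and 4.75% of the sum on average.

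With reads assigned to Hmga1b, a near-identical copy of Hmga1, left out, Hmga2 was the most abundant of the genes by read count in PVASC and Ab-ASC. It lies on chromosome 10 at 120361275 to 120476469 and stood at 41.3, 46.9 and 39.7 CPM in Sub-ASC, 392, 426 and 421 in Ab-ASC, and 534, 517 and 511 in PVASC. The lowest Ab-ASC library was thus far above every Sub-ASC library, and PVASC lay above Ab-ASC by a smaller step. The log2 fold change against Sub-ASC was 3.61 ± 0.070 in PVASC and 3.28 ± 0.070 in Ab-ASC, and it was 0.33 ± 0.063 for PVASC against Ab-ASC. On the FPKM scale, without TMM, the last of these was 0.56, since the scaling factors differed between the groups.

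In rank, Hmga2 went from a level above 61.7% of the tested genes in Sub-ASC, at 6.16 ± 0.560 FPKM, to above 94.7% in Ab-ASC at 57.0 ± 3.94 and above 96.5% in PVASC at 83.9 ± 2.08. The antisense gene 1700006J14Rik, which overlaps it, had 6 to 9 reads in Sub-ASC, 37 to 53 in Ab-ASC and 98 to 118 in PVASC, and reads of the overlap cannot be assigned to a strand. These reads were few beside the 963 to 17461 reads of Hmga2.

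Hmga1, on chromosome 17 at 27556497 to 27563674, had the same order of groups with smaller steps. Its levels were 54.7, 48.8 and 62.8 CPM in Sub-ASC, 186, 172 and 177 in Ab-ASC, and 233, 215 and 218 in PVASC. The groups did not overlap. The log2 fold change was 2.0 ± 0.083 for PVASC and 1.69 ± 0.082 for Ab-ASC against Sub-ASC, and 0.32 ± 0.079 for PVASC against Ab-ASC (0.54 on the FPKM scale). Per length, Hmga1 was the highest of the 7 genes in PVASC, at 114 ± 5.21 FPKM, and in Ab-ASC, at 78.3 ± 1.19 FPKM. In Sub-ASC, its 25.5 ± 3.16 FPKM and the 26.0 ± 0.784 FPKM of Igf2bp2 lay within their spread.

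The level of Hmga1 is uncertain because of a near-identical copy. Hmga1b, a gene with 1 exon on chromosome 11 at 120762794 to 120764419, shared 89.0% of its stretches of 50 bases with Hmga1, and Hmga1 shared 55.0% of its own with it. More reads were assigned to the copy than to Hmga1, with 81.2 ± 6.79 CPM in Sub-ASC, 337 ± 26.3 in Ab-ASC and 408 ± 5.85 in PVASC. How reads were split between these copies is not given in the sources used here, so the order of Hmga1 and Hmga2 by read count in PVASC and Ab-ASC is not settled. With the reads of both added, the log2 fold change against Sub-ASC was 2.21 in PVASC and 1.91 in Ab-ASC. AI413582 overlaps Hmga1 on the other strand and had 423 to 623 reads per library, beside 1242 to 1646 reads of Hmga1 in Sub-ASC, and reads from the overlap cannot be told apart.

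**Figure D4:**
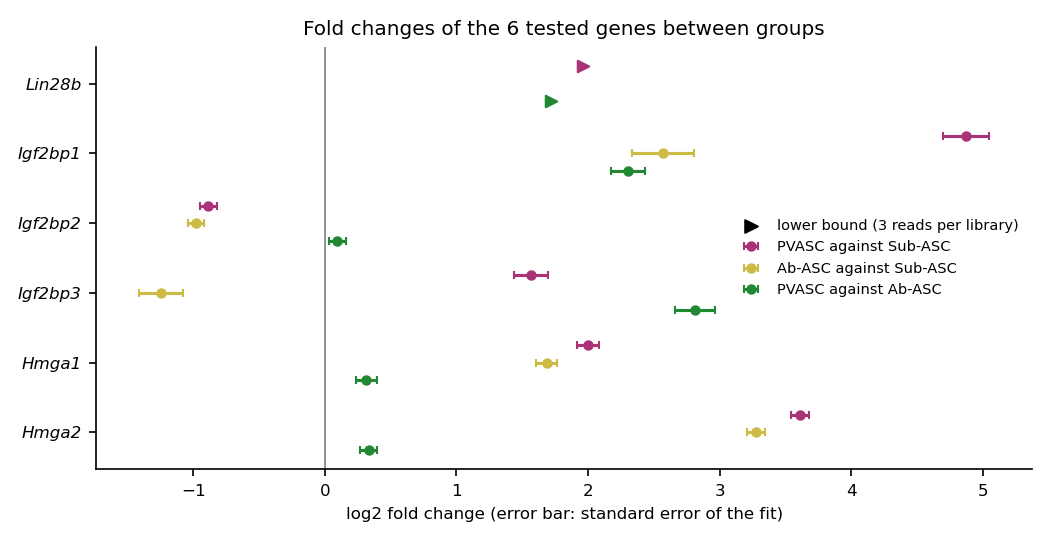
Fitted log2 fold change with its standard error for the 6 tested genes in the 3 comparisons; triangles are lower bounds for Lin28b, against 3 reads per library. Hmga1 and Hmga2 differ more against Sub-ASC than between PVASC and Ab-ASC, whereas Igf2bp3 has opposite signs in PVASC and Ab-ASC against Sub-ASC.

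Marker genes of other cell types and of proliferation also differed between the groups. All 15 genes of proliferating cells were higher in PVASC and in Ab-ASC than in Sub-ASC, with a summed level of 171 to 178 CPM in Sub-ASC, 1455 to 1493 in Ab-ASC and 1183 to 1204 in PVASC. Between PVASC and Ab-ASC, 3 of the 15 were higher and 11 lower in PVASC. Of 10 endothelial markers, 8 were higher in PVASC and 8 lower in Ab-ASC than in Sub-ASC, and the sums of 217 to 230 CPM in Sub-ASC, 99.3 to 101 in Ab-ASC and 895 to 900 in PVASC had the group order of Igf2bp3.

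Of 12 mesothelial markers tested, 10 were higher in Ab-ASC and 10 in PVASC than in Sub-ASC, with sums of 8.46 to 10.1 CPM in Sub-ASC, 136 to 144 in Ab-ASC and 62.3 to 63.5 in PVASC. The defining marker Msln was at 0.0131 ± 0.0227 CPM in Sub-ASC, 6.53 ± 1.22 in Ab-ASC and 0.443 ± 0.153 in PVASC. All 7 smooth muscle genes tested were higher in both than in Sub-ASC, from 93.0 to 98.2 CPM in Sub-ASC up to 4653 to 5745 in Ab-ASC and 2816 to 2961 in PVASC. Of 9 leukocyte genes tested, 7 were lower and 2 higher in PVASC than in Sub-ASC, and the same numbers held for Ab-ASC. Their sums were 297 to 302, 330 to 421 and 316 to 326 CPM in Sub-ASC, Ab-ASC and PVASC. Ptprc, which encodes CD45, did not follow these sums, at 8.94 ± 1.01, 1.41 ± 0.249 and 2.81 ± 0.476 CPM in the same order. Whether such cells were present, or cultured stromal cells expressed these markers, was not tested, nor was their part in the levels of the 7 genes.

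The genes with the most similar profiles over the 9 libraries differed between the members. Similarity was the root mean square difference between centred log2 CPM profiles, ranked over 13874 genes, and is a description only. The nearest to Lin28b was the dopamine transporter gene Slc6a3 (0.082), also read only in PVASC, followed by Adamtsl3 (0.16), Pcdh17 (0.16), Stab1 (0.17) and Mcam (0.18). Lin28b had 0 reads in 6 libraries, so the size of its step on this scale is set by the prior count of 2 added before taking logs. The order of genes after Slc6a3, which were read in all groups, depends on that value. Igf2bp1 had Klhl6 (0.15), Ank (0.15), Tinagl1 (0.17), Nkain2 (0.17) and Nptx1 (0.20) nearest to it. For Hmga2 they were Itga8 (0.098), Wisp1 (0.11), Ckap2 (0.11), Fhl2 (0.14) and Tm4sf1 (0.16). Mcam, for example, stood at 22.4 ± 0.760 CPM in Sub-ASC, 24.9 ± 2.54 in Ab-ASC and 134 ± 4.62 in PVASC, and Itga8 at 0.800 ± 0.196, 7.98 ± 0.705 and 10.4 ± 0.0917. None of the 5 genes nearest to Lin28b, Igf2bp1 or Hmga2 belonged to the 7. The nearest other member was Igf2bp3 for Lin28b (rank 169, 0.61), Hmga2 for Igf2bp1 (rank 176, 0.79) and Hmga1 for Hmga2 (rank 625, 0.77).

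The gene lists that follow are read beside all 16526 tested genes, of which 34.7% were higher and 35.7% lower in PVASC than in Sub-ASC, 37.0% and 38.3% in Ab-ASC than in Sub-ASC, and 24.7% and 32.1% in PVASC than in Ab-ASC. The median log2 fold changes over all genes were -0.011, -0.026 and -0.055 in that order. These lists were also chosen with earlier results of these data known. The adjusted p values of their genes, from the edgeR test over all tested genes, are thus a description and not independent tests. Genes that act with LIN28 in let-7 processing moved in both directions. Of 19 tested, 9 were higher and 7 lower in PVASC than in Sub-ASC, with a median log2 fold change of 0.16 beside -0.011 over all genes, and 8 were higher and 6 lower in Ab-ASC, with a median of 0.033 beside -0.026. The uridylyltransferase genes, which encode the enzymes that tag let-7 precursors, were lower in both groups. Tut7 fell by 0.88 ± 0.079 in PVASC (adjusted p = 5.9e-07) and by 1.19 ± 0.081 in Ab-ASC (adjusted p = 3.9e-08) on the log2 scale, from 132 ± 8.14 CPM in Sub-ASC. Tut4 fell by 0.46 ± 0.10 (adjusted p = 0.0014) and 1.05 ± 0.11 (adjusted p = 1.8e-06), and Dis3l2, which encodes the nuclease that degrades the tagged precursor, by 0.48 ± 0.10 (adjusted p = 0.0012) and 0.35 ± 0.11 (adjusted p = 0.0096).

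Others of this list were higher. Hnrnpa1, which encodes a protein that binds let-7 precursors, rose by 1.39 ± 0.088 in PVASC (adjusted p = 1.9e-08) and 1.32 ± 0.088 in Ab-ASC (adjusted p = 3.1e-08), and Tarbp2, which encodes a Dicer partner, by 1.07 ± 0.070 (adjusted p = 3.0e-08) and 1.32 ± 0.071 (adjusted p = 3.9e-09). Elavl1, encoding the RNA-binding protein HuR, rose by 0.64 ± 0.057 (adjusted p = 4.9e-07) and 1.06 ± 0.057 (adjusted p = 3.9e-09). Msi2, whose product is an RNA-binding protein of stem cells, rose in PVASC, by 0.99 ± 0.095 (adjusted p = 1.1e-06), and had -0.14 ± 0.099 in Ab-ASC (adjusted p = 0.21). Between PVASC and Ab-ASC, Msi2 was higher in PVASC by 1.13 ± 0.096 (adjusted p = 1.1e-06), with 6 genes of the list higher and 7 lower there and a median of -0.13 beside -0.055 over all genes. Trim71, itself a let-7 target, had at most 4 reads in any library and was not tested.

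Let-7 itself was not measured, since these libraries do not hold mature microRNAs. Of the 16 host and precursor genes listed, 13 were in the table, and the 12 precursor genes had at most 3 reads in any library. The host gene Mir99ahg, which holds a let-7c gene, was the only one tested. It stood at 3.83 ± 0.410 CPM in Sub-ASC, 1.27 ± 0.222 in Ab-ASC and 2.96 ± 0.226 in PVASC. It was lower in Ab-ASC than in Sub-ASC by 1.57 ± 0.18 on the log2 scale (adjusted p = 4.9e-06) and higher in PVASC than in Ab-ASC by 1.20 ± 0.18 (adjusted p = 0.00014). Its difference between PVASC and Sub-ASC, -0.37 ± 0.15 (adjusted p = 0.040), kept its direction under 15 alternative settings, at -0.45 to -0.30, and missed the threshold under 8 of them, with adjusted p from 0.029 to 0.14 over the 15.

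Among genes reported as let-7 targets, more were higher than lower in both groups than in Sub-ASC. Of 33 tested, 22 were higher and 5 lower in PVASC (median 0.71) and 18 higher and 9 lower in Ab-ASC (median 0.52), beside 34.7% of all tested genes higher in PVASC and 37.0% in Ab-ASC. Their summed level did not follow these counts in PVASC, with 15231 to 16365 CPM in Sub-ASC, 18477 to 18550 in Ab-ASC and 13160 to 13497 in PVASC. The largest parts of these sums were Col3a1, Col1a2 and Thbs1. Their means were 9107, 5000 and 549 CPM in Sub-ASC, 1208, 4329 and 10965 in Ab-ASC, and 1109, 2242 and 7601 in PVASC. The collagen genes Col3a1 and Col1a2, also markers of stromal cells, fell by 3.04 ± 0.046 and 1.16 ± 0.048 in PVASC (adjusted p = 5.1e-14 and 3.3e-10) and by 2.91 ± 0.046 and 0.21 ± 0.048 in Ab-ASC (adjusted p = 6.8e-14 and 0.0017). Many of these targets serve the cell cycle, and the summed level of the proliferation genes given before was also higher in both groups than in Sub-ASC, but higher in Ab-ASC than in PVASC. Its part in these counts was not tested beyond leaving genes out. Without the 2 genes that the proliferation list also holds, 20 were higher and 5 lower in PVASC and 16 and 9 in Ab-ASC. Also without Dna2, Fancd2 and Aurkb, 17 were higher and 5 lower in PVASC (median 0.53) and 13 and 9 in Ab-ASC (median 0.32). Between PVASC and Ab-ASC, 14 were higher and 12 lower, with a median of 0.006.

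Among the targets with the largest called changes were Mycn, a growth-promoting transcription factor, with 0.123 ± 0.0880 CPM in Sub-ASC, 7.14 ± 0.230 in Ab-ASC and 3.36 ± 0.606 in PVASC, and Ccnd1, the cyclin of the early cell cycle, with 32.0 ± 0.929, 189 ± 7.38 and 525 ± 5.57. Ccnd1 rose by 4.03 ± 0.055 in PVASC (adjusted p = 2.9e-14) and 2.56 ± 0.053 in Ab-ASC (adjusted p = 4.9e-13), and Mycn by 4.75 ± 0.32 (adjusted p = 3.9e-08) and 5.84 ± 0.29 (adjusted p = 2.0e-09). Rrm2, which makes DNA precursors, the mitotic kinase genes Aurka and Aurkb, and Thbs1, an extracellular matrix gene, rose by 3.06 to 3.79 in PVASC and 3.45 to 4.63 in Ab-ASC. Myc rose by 0.30 ± 0.057 (adjusted p = 0.00047) and 0.52 ± 0.057 (adjusted p = 3.7e-06).

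Arid3a, Arid3b and Plagl2, transcription factor genes of the LIN28 and let-7 axis, gave mixed values. Arid3a fell by 0.79 ± 0.076 in PVASC (adjusted p = 1.2e-06) and by 0.73 ± 0.078 in Ab-ASC (adjusted p = 2.9e-06). Arid3b had 0.17 ± 0.16 in PVASC (adjusted p = 0.37) and -0.22 ± 0.17 in Ab-ASC (adjusted p = 0.25). Plagl2 had -0.035 ± 0.088 in PVASC (adjusted p = 0.74) and fell by 0.40 ± 0.092 in Ab-ASC (adjusted p = 0.0018).

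Over the whole transcriptome, genes with and without let-7 seed matches were compared by their medians. With the 7 genes left out, the 175 tested genes with at least 2 matches had a median log2 fold change of 0.018 in PVASC against Sub-ASC, beside -0.022 for the 12346 genes with none, and of -0.14 beside -0.0084 in Ab-ASC against Sub-ASC. Between PVASC and Ab-ASC these medians were 0.043 and -0.084, and in each comparison the sign for genes with at least 2 matches changed with the way matches were counted. With matches of 8 letters, the 25 tested genes with at least 2 had a median of -0.48 in Ab-ASC against Sub-ASC. Nr6a1, with 8 matches, had 0.018 ± 0.18 in PVASC (adjusted p = 0.94) and fell by 0.99 ± 0.21 in Ab-ASC (adjusted p = 0.00083). Besides Lin28b, Igf2bp1 and Hmga2, which were chosen for their levels, the 8 tested genes with at least 4 matches had log2 fold changes of -3.80 (Ptafr) to 1.28 (Mcf2l) in PVASC against Sub-ASC.

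Messenger RNAs known to bind IGF2BP proteins differed widely. Of 12 tested, 8 were higher and 4 lower in PVASC than in Sub-ASC (median 1.07), 7 higher and 4 lower in Ab-ASC than in Sub-ASC (median 0.60), and 5 higher and 6 lower in PVASC than in Ab-ASC (median -0.21), beside medians of -0.011, -0.026 and -0.055 over all genes. Igf2, after which the proteins are named, had at most 5 reads in any library and was not tested. The imprinted RNA H19 stood at 6.29 ± 0.650 CPM in Sub-ASC, 2.47 ± 0.528 in Ab-ASC and 17.3 ± 0.255 in PVASC, the group order of Igf2bp3. It rose by 1.46 ± 0.11 in PVASC (adjusted p = 1.3e-07) and fell by 1.34 ± 0.15 in Ab-ASC (adjusted p = 3.4e-06).

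Ptgs2, which encodes the inducible cyclooxygenase, rose by 3.67 ± 0.11 in PVASC (adjusted p = 1.7e-11) and 4.67 ± 0.12 in Ab-ASC (adjusted p = 2.6e-12). Actb, the gene of beta-actin and the classical client of IGF2BP1, rose by 2.07 ± 0.051 (adjusted p = 2.3e-12) and 2.77 ± 0.052 (adjusted p = 2.5e-13). The efflux pump gene Abcb1a had 1.68 ± 0.468 CPM in Sub-ASC, 6.94 ± 1.93 in Ab-ASC and 12.4 ± 0.605 in PVASC, and Abcb1b rose by 1.72 ± 0.078 and 1.38 ± 0.080 (adjusted p = 8.0e-10 and 7.9e-09). Mapk4, a kinase gene, fell by 3.40 ± 0.24 in PVASC (adjusted p = 6.1e-08) and by 0.87 ± 0.19 in Ab-ASC (adjusted p = 0.0013).

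Genes linked to HMGA proteins moved in both directions, as all tested genes did. Of 15 tested, 7 were higher and 7 lower in PVASC than in Sub-ASC (median 0.16), 6 higher and 7 lower in Ab-ASC (median -0.087), and 6 higher and 8 lower in PVASC than in Ab-ASC (median -0.21). Over all genes, 34.7% were higher and 35.7% lower in the comparison of PVASC with Sub-ASC. The cyclin genes Ccna2 and Ccnb2 rose by 3.66 ± 0.10 and 3.59 ± 0.082 in PVASC (adjusted p = 6.0e-12 and 1.2e-12) and by 3.96 ± 0.10 and 3.97 ± 0.082 in Ab-ASC (adjusted p = 3.0e-12 and 4.9e-13). Cdkn2a, the locus of the growth inhibitors p16 and ARF, had 6.60 ± 0.211 CPM in Sub-ASC, 6.26 ± 1.46 in Ab-ASC and 46.6 ± 2.91 in PVASC. It rose by 2.82 ± 0.12 in PVASC (adjusted p = 5.2e-10) and had -0.087 ± 0.14 in Ab-ASC (adjusted p = 0.60).

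Also in this list, Ercc1, a DNA repair gene, rose by 1.21 ± 0.11 in PVASC (adjusted p = 9.0e-07) and 1.64 ± 0.11 in Ab-ASC (adjusted p = 4.9e-08). Pparg, the master factor of fat cell formation, fell by 0.76 ± 0.071 (adjusted p = 8.3e-07) and 1.53 ± 0.076 (adjusted p = 1.6e-09). Plag1, a transcription factor gene of fetal growth, fell by 0.33 ± 0.13 in PVASC (adjusted p = 0.038) and by 2.68 ± 0.18 in Ab-ASC (adjusted p = 2.9e-08).

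Other oncofetal and fetal growth genes moved in both directions. Of 14 tested, 10 were higher and 2 lower in PVASC than in Ab-ASC (median 1.39 beside -0.055 over all genes, of which 24.7% were higher and 32.1% lower), 8 higher and 5 lower in PVASC than in Sub-ASC (median 0.37), and 3 higher and 8 lower in Ab-ASC than in Sub-ASC (median -0.81). The imprinted Dlk1, which encodes preadipocyte factor 1, stood at 0.467 ± 0.00829 CPM in Sub-ASC, 3.76 ± 0.0950 in Ab-ASC and 25.6 ± 2.13 in PVASC, the group order of Igf2bp1. Mest, another imprinted gene, had 3.86 ± 0.631, 3.72 ± 0.559 and 38.5 ± 1.24 CPM, and the imprinted RNA Meg3 had 26.4 ± 2.54, 101 ± 14 and 187 ± 14.4. Among the PVASC to Ab-ASC differences, Dlk1 was higher by 2.76 ± 0.098 (adjusted p = 4.7e-10), Mest by 3.36 ± 0.12 (adjusted p = 4.5e-10) and Meg3 by 0.89 ± 0.10 (adjusted p = 1.4e-05).

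The growth inhibitor gene Cdkn1c, also imprinted, stood at 37.4 ± 2.27 CPM in Sub-ASC and at 0.800 ± 0.202 and 0.952 ± 0.128 in Ab-ASC and PVASC, a fall by 5.56 ± 0.14 and 5.29 ± 0.13 (adjusted p = 2.9e-12 and 1.9e-12). Ptn, the gene of the growth factor pleiotrophin, had 2 reads over the Ab-ASC libraries, at least 11.9-fold lower than its 1.70 ± 0.486 CPM in Sub-ASC. Afp, Sall4, Epcam and Cldn6 were too low to be tested in any comparison.

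Most genes of the pluripotency programme, in which LIN28A is best known, had too few reads to be tested. Of 15 such genes, 3 were tested. These were higher in PVASC than in Sub-ASC. Pou5f1, Zfp42, Dppa5a, Tdgf1 and Fgf4 had 0 reads in all 9 libraries. Klf4 and Klf2, which are also used in many adult cells, rose by 0.74 ± 0.053 and 1.22 ± 0.063 in PVASC (adjusted p = 7.0e-08 and 2.8e-09) and by 0.36 ± 0.054 and 1.38 ± 0.064 in Ab-ASC (adjusted p = 6.6e-05 and 9.3e-10). Between PVASC and Ab-ASC, Klf4 was higher in PVASC by 0.39 ± 0.053 (adjusted p = 7.3e-05), and Klf2 was lower there, at -0.15 ± 0.060 (adjusted p = 0.047). Sox2, which neural progenitors also use, had 381 reads over the PVASC libraries and 4.07 ± 0.551 CPM, beside 0.196 ± 0.0968 CPM in Sub-ASC and 0.0654 ± 0.0574 in Ab-ASC, and was higher in PVASC than in Sub-ASC by 4.32 ± 0.33 (adjusted p = 1.1e-07).

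**Figure D5:**
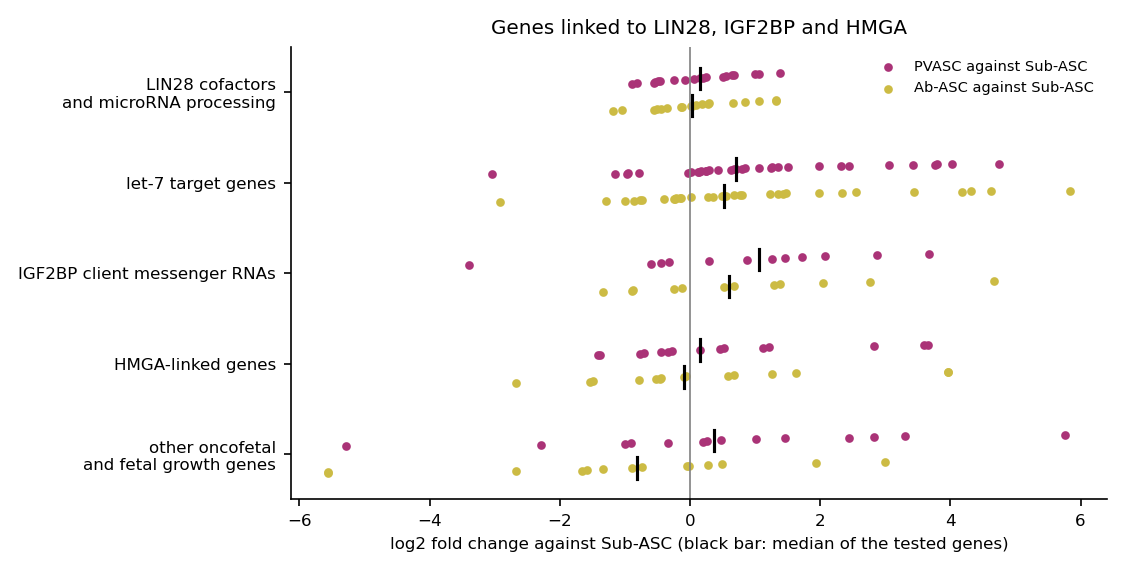
Log2 fold changes of the tested genes (points) of 5 lists in PVASC (purple) and Ab-ASC (yellow) against Sub-ASC, with the median of each list (black bar). The points of every list lie on both sides of 0, and the widest spread is that of the oncofetal and fetal growth genes, from Cdkn1c to Dlk1 in PVASC.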

How the data were processed

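Messenger RNA of cultured ASCs was sequenced in 9 libraries with a library kit that does not mark strand. The authors deposited raw read counts per gene, with gene lengths and positions. The submitters' processing notes name CASAVA 1.8, Bowtie 0.12.2 and featureCounts 1.5.0-p3, and the builds mm8 and mm10, with no role. Start and end equalled those of GENCODE M21 on GRCm38 for 98.1% of genes, and for all 7 genes described.

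The 7 genes and all gene lists were chosen with earlier results of these data known. Counts were tested with edgeR 4.0.16 (limma 3.58.1, R 4.3.3) by the quasi-likelihood F-test after filterByExpr and TMM, with 9 libraries in 1 fit without covariates and Benjamini-Hochberg adjustment over 16526 genes at 0.05. The procedure was tested on simulated data. CPM used TMM-scaled totals, and FPKM the listed length and the library total. Errors of means are SDs, and those of fold changes are standard errors. Against a group with no library above 3 reads, folds are lower bounds, taken against 3 reads per library. This limit covers counting error only. For similarity, 2 was used as prior count for log2 CPM.

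Up to 6 genes per list, those with the largest called fold change in PVASC or Ab-ASC against Sub-ASC, were named, besides genes of the LIN28 and let-7 axis, overlapping genes and copies, and the 5 genes nearest in profile to Lin28b, Igf2bp1 and Hmga2. Ly6a, Thy1, Eng, Msln, Ptprc, Tbx20, Col3a1, Col1a2, Dna2 and Fancd2 were named after their values were seen. So were genes with many let-7 matches and listed genes too low to test. Alternatives were DESeq2 1.42.0, RLE size factors, other low-count filters, a replicate block, only the groups compared, a fold-change limit, FPKM, added Hmga1b reads, other let-7 matches and leaving out each library. The target list without proliferation genes was an alternative chosen after seeing the data.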

Additional observations from a re-analysis of the deposited data

How the results depend on the processing

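Of 268 fold changes of the 6 tested genes under the alternatives, 0 changed direction, and 14 moved beyond the spread between replicates, 6 of them on the FPKM scale and 5 for Lin28b. A further limit of 1 on the absolute log2 fold change left 5328 genes called for PVASC against Sub-ASC, 6241 for Ab-ASC against Sub-ASC and 2551 for PVASC against Ab-ASC. In that order of comparisons, it left 2, 5 and 1 genes of LIN28 cofactors, 16, 14 and 5 let-7 targets, 7, 6 and 3 IGF2BP clients and 7, 7 and 3 HMGA-linked genes. Of fetal growth genes it left 8 for PVASC against Sub-ASC and 7 for PVASC against Ab-ASC, and of pluripotency genes 1 for Ab-ASC against Sub-ASC and 1 for PVASC against Ab-ASC, where requiring 10 reads in every library also left 1. The median of genes with at least 2 let-7 matches changed sign to -0.185 in PVASC against Sub-ASC with matches of 8 letters, which moved it to -0.48 in Ab-ASC against Sub-ASC, and to 0.0144 in Ab-ASC against Sub-ASC and -0.056 in PVASC against Ab-ASC with the shortest 3' UTRs. The cause was not tested.

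Libraries with the same number did not deviate together (r from -0.051 to 0.095). Such a check cannot show whether libraries with the same number share an animal or a preparation. With a replicate block, 11458, 12302 and 9183 genes were called, and Mir99ahg between PVASC and Sub-ASC was no longer called (adjusted p = 0.067), at the same log2 fold change of -0.37. Depth limits Lin28a, Lin28b and Igf2bp1 in Sub-ASC most, at 0 to 16, or 6 to 8, reads per library.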
